A study of Rattus norvegicus with 99 samples.

Results

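The genes described here are the nuclear-encoded subunits of the mitochondrial respiratory chain and of ATP synthase, in RNA sequencing of 3 regions of the rat heart. They were taken from the deposited table by symbol: Nduf followed by a, b, c, s or v and a digit, Sdha to Sdhd, symbols beginning Uqcr, symbols beginning Cox4 to Cox8, and symbols beginning Atp5. Of 17337 rows, 80 had such a symbol, and 77 of these had at least 10 reads in at least 49.5 of the 99 libraries, as did 11098 rows in all. The 77 members comprise 34 genes assigned to complex I, 4 to complex II, 8 to complex III, 14 to complex IV and 17 to complex V, by symbol. The 3 rows left out by the read minimum are Cox6c-ps1, Cox8c and Ndufa1. The subunit genes Cox6b1, Cox7a1, Ndufa3, Ndufa13, Ndufb1 and Ndufc1, and the subunits encoded in mitochondrial DNA, were not analysed here.

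The animals were 33 male hybrid rats of Wistar Kyoto mothers and Lewis fathers, and each gave 1 library from the left ventricle (LV), the septum (Spt) and the right ventricle (RV). A clip that did not constrict when placed, and tightened as the animal grew, was set around the pulmonary artery (PAB, which loads the RV) or the aorta (AOB, which loads the LV), and sham-operated animals served as controls. At compensated hypertrophy (H), at an age of 11 weeks and 7 weeks after surgery, there were 7 Sham-H, 7 PAB-H and 7 AOB-H animals. At heart failure (F) there were 3 PAB-F and 2 Sham-RF animals at 27 weeks of age, 21 weeks after surgery, and 4 AOB-F and 3 Sham-LF animals at 30 weeks of age, 24 weeks after surgery. These are the ages of the sample labels.

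Complex I takes electrons from NADH and complex II takes them from succinate, both pass them through ubiquinone to complex III, and cytochrome c carries them on to complex IV, which reduces oxygen. Complexes I, III and IV pump protons across the inner mitochondrial membrane, and complex V, the ATP synthase, uses their return to make ATP. Cardiomyocytes are packed with mitochondria and carry muscle isoforms of several complex IV subunits, encoded by genes separate from the ubiquitous isoforms.

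The libraries held 12.06 to 24.20 M reads (median 17.39 M; M stands for mega), and the members took 6.43% to 11.7% of a library's reads, with a median of 8.35%. Library numbers in the labels form 3 runs (library series 1 to 3). The ventricle libraries of the H groups were in series 1 for replicates 1 and 2, in series 2 for replicates 3 to 5 and in series 3 for replicates 6 and 7, and every F library was in series 2. In Spt, replicates 1 and 5 of the H groups were in series 2 and all other libraries, F included, in series 3. Each failure group and its sham group therefore lay within 1 series. Whether the labels of both ventricles fit was checked per animal by the RV minus LV difference over 50 genes, members left out, that were chosen in the other animals. In 30 animals the difference had the direction of the others, and in 3 it was opposite, at -0.92 times the median of the others in Sham-H replicate 6, -0.99 in PAB-H replicate 2 and -1.27 in AOB-H replicate 1. The labels were kept, so a value of these animals is that of a library by its label. In Spt, Sham-H replicate 5 stood apart in the members' mean level. The main counts and medians over members that rest on it are given with and without it. Cardiomyocyte markers (Myh6, Tnnt2, Tnni3, Actc1, Ryr2, Myl2, Myl3) summed to 54210 to 112500 CPM (counts scaled to a common library total) in every library, and the atrial markers Myl7, Myl4 and Sln to 4.58 to 1807.

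The members were among the abundant transcripts of the heart, and they spread over several orders of magnitude. On the per-length scale (FPKM, mean over the 99 libraries) the median member level was 760 in complex I, 755 in complex II, 1378 in complex III, 2359 in complex IV and 2436 in complex V. The highest members were Ndufb9 (2624 FPKM) of complex I, Sdhb (1167.02) of complex II, Uqcr10 (2354) of complex III, Cox8b (8345) of complex IV and Atp5b (5376), the catalytic beta subunit, of complex V. The lowest were Ndufa10l1 (0.855 FPKM) in complex I, Sdha (516) in complex II, Uqcrb (632) in complex III, Cox6b2 (2.17), the testis isoform of subunit 6b, in complex IV, and Atp5f1 (0.564) in complex V. Of the 77, 74 had 10 reads or more in all 99 libraries. Ndufa10l1 had 21.84 reads per library on average, Cox6b2 17.44, Atp5f1 23.98 and Ndufs6 29.02, so their values carry the largest counting error. The row Ndufs6 has the gene identifier that RefSeq gives to the pseudogene Ndufs6-ps1, and the rows Atp5s and Atp5sl are named Dmac2l and Dmac2 there, proteins that are not subunits of the synthase. The row Atp5f1 is named Atp5pb there and had 9 to 52 reads per library. Whether this row holds the full level of its gene was not tested. Ndufa4, counted under complex I by its symbol, is now known as a subunit of complex IV. Reads of members with near-identical processed copies could be split between copies, and how reads with several positions were counted is not given in the sources used here.

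The muscle isoforms held most of the transcripts of their subunits. Among isoforms, Cox6a2, the muscle form of subunit 6a, stood at 5670 FPKM and the ubiquitous Cox6a1 at 497. Cox8b, the form of subunit 8 found in heart and skeletal muscle, stood at 8345 FPKM and Cox8a at 316. Cox4i1, the general form of subunit 4, was at 4854 FPKM and Cox4i2, a form known from lung and from hypoxia, at 32.2. Ndufa4 was at 2498 FPKM and its hypoxia-responsive paralogue Ndufa4l2 at 18.1. The 3 genes of the ATP synthase c ring encode one mature protein, and they were at 3464 (Atp5g1), 1000 (Atp5g2) and 4236 FPKM (Atp5g3). Cox7a2, the form of subunit 7a outside muscle, was at 470 FPKM and the related Cox7a2l, which takes part in joining complexes III and IV, at 219.

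For most of these genes the lowest and highest group means lay in the same groups. Cox8b ranged from 5710 ± 1045.8 FPKM (SD, n = 4) in LV of AOB-F to 12870 ± 2784 (n = 3) in RV of Sham-LF. Cox4i1 ranged from 3820 ± 501 FPKM in LV of AOB-F to 6050 ± 1157.7 in RV of Sham-LF. Sdhb, the iron-sulfur subunit of complex II, ranged from 935 ± 124 FPKM in LV of AOB-F to 1404 ± 163 in RV of Sham-LF. Atp5b was lowest in LV of AOB-F too, at 4149 ± 444 FPKM, but highest in RV of PAB-H, at 5965 ± 455 (n = 7). Cox6a2 had another order, with its lowest mean in LV of PAB-H (5001 ± 1252 FPKM) and its highest in Spt of Sham-RF (7397 ± 635, n = 2).

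A member score was taken as the mean over the 77 members of log2(CPM + 0.5), centred on the mean of all 99 libraries. Of the 21 groups, LV of AOB-F had the lowest mean score, -0.27, followed by Spt of AOB-F at -0.19, Spt of AOB-H at -0.13 and RV of AOB-F at -0.09. The highest were RV of Sham-LF at 0.30, Spt of Sham-RF at 0.19, RV of Sham-RF at 0.16 and RV of Sham-H at 0.10. Each of the 5 complexes had its lowest group mean in LV of AOB-F and its highest in RV of Sham-LF. These were -0.27 ± 0.13 and 0.31 ± 0.22 (SD) for complex I, -0.32 ± 0.18 and 0.14 ± 0.04 for complex II, -0.22 ± 0.07 and 0.29 ± 0.17 for complex III, -0.24 ± 0.10 and 0.33 ± 0.28 for complex IV, and -0.30 ± 0.12 and 0.31 ± 0.18 for complex V. From RV of PAB-F at -0.06 to RV of Sham-H at 0.10 the group means were closer together than the SD within many of the groups. The H groups span more than 1 library series and the F groups do not, so these ranks are not those within a series. In series 2, the LV libraries of AOB-H had scores of -0.34, -0.44 and -0.05, and those of AOB-F ran from -0.38 to -0.14.

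**Figure D1:**
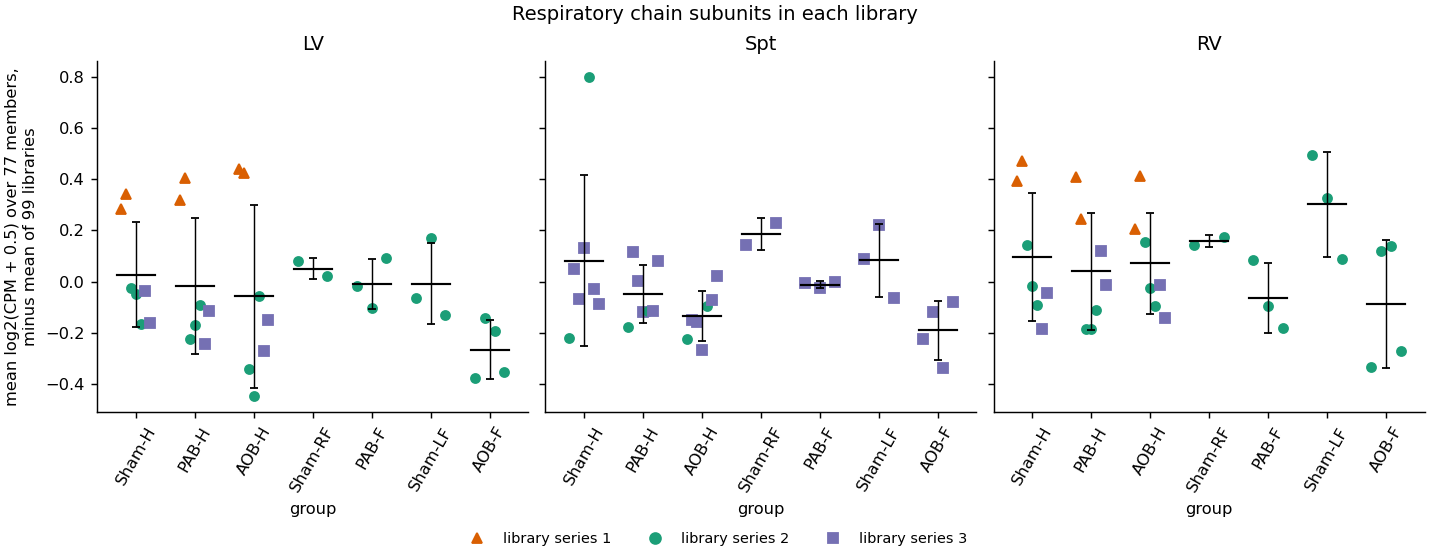
Member score (mean over 77 members of log2(CPM + 0.5), centred on the mean of all libraries) of every library, by group and region, coloured by library series. LV of AOB-F lies between -0.38 and -0.14, and the Spt library of Sham-H replicate 5 at 0.80 lies above all others of its group.

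The members' level also moved with the library series, which is shown before the conditions. In the 21 H libraries of a region, with condition as a covariate (edgeR quasi-likelihood F test, Benjamini-Hochberg adjusted), 71 of 77 members differed between series in LV, against 58.2% of all genes tested, and 68 in RV, against 49.5%. In Spt, none differed, as for all genes tested (0%). In LV, 73 of 77 members were lower in series 2 than in series 1, with a median log2 difference of -0.60, and 75 were lower in series 3, with a median of -0.58. The RV medians were -0.42 and -0.43, and that of series 3 against 2 in Spt was -0.10. The genes with the lowest p in LV were Cox6a1 at -0.68 (series 2 minus 1; adjusted p = 2.147e-08), Ndufb2 at -0.74 (adjusted p = 2.613e-08) and Ndufb10 at -0.67 (adjusted p = 4.535e-08). In RV they were Cox6a1 at -0.54 (adjusted p = 8.29e-07), Cox5a at -0.43 (adjusted p = 1.607e-06) and Atp5g1 at -0.49 (adjusted p = 5.015e-06). Spt had Ndufa10l1 at 0.54 (adjusted p = 0.741), Atp5sl and Ndufs6 as those with the lowest p. By complex, the LV medians of series 2 minus 1 were -0.59 (complex I), -0.33 (II), -0.63 (III), -0.62 (IV) and -0.61 (V). The members that did not pass were 6 in LV and 9 in RV, with Ndufs1, Sdha and Uqcrc2 among them in both ventricles, and Atp5a1 and Atp5b in RV.

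The members are short genes, with a median length of 683 bases (from normalized counts over FPKM) against 2032 for all rows, and 5146 other tested genes had a length between their 5th and 95th percentiles, 420 and 1986.2 bases. These other genes of like length span the members' range but were not matched to them in length. They also stood lower in series 2 than in series 1, with a median of -0.24 in LV and -0.19 in RV. Cytosolic ribosomal protein genes, which are short too, had a median of -0.56 in LV. Below 500 bases, the LV difference of series 2 minus 1 was -0.66 for members and -0.60 for other genes. Between 1200 and 2500 bases the values were -0.29 and -0.13. Over the 77 members, log2 length and the series difference correlated at r = 0.807 (Spearman 0.708) in LV and 0.738 (0.668) in RV, and at 0.133 (0.169) in Spt. The 77 points of each correlation share their libraries. With TMM scaling computed over short genes alone, which moved the median of all genes by 0.21 in LV and 0.19 in RV, 63 members were called lower and 2 higher in LV, and 51 lower and 4 higher in RV, where 58.3% and 48.6% of all genes tested were called in either direction.

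**Figure D2:**
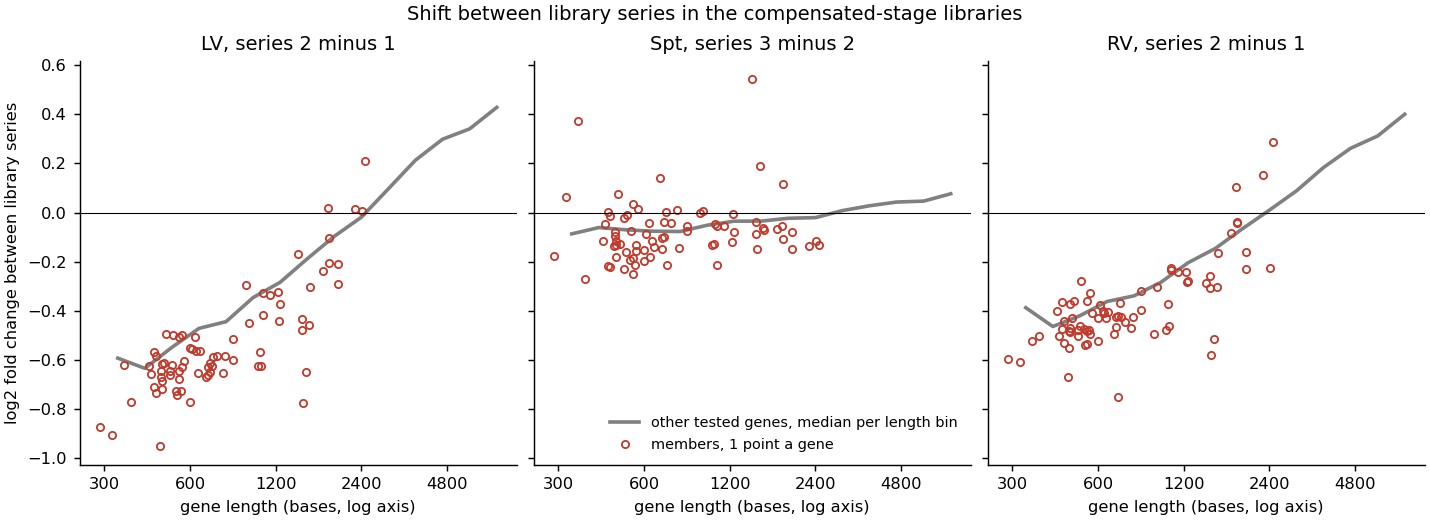
Log2 difference between library series in the H libraries against transcript length (log axis, bases), for LV (series 2 minus 1), Spt (3 minus 2) and RV (2 minus 1). Red circles are members and the grey line is the median of other tested genes per length bin, and in LV and RV both rise with length, from -0.66 for members under 500 bases in LV to -0.29 above 1200.

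In the failing left heart (AOB-F against Sham-LF), all but 1 of the 77 members had a log2 fold change below 0 in each region, but none passed the adjusted threshold. The median over members was -0.26 in LV, -0.32 in Spt and -0.39 in RV, with 76 of 77 members below 0 in each. Over all genes tested the median was 0.01 in LV, -0.01 in Spt and 0.03 in RV, and 5525 of 11703, 6061 of 11624 and 5375 of 11734 genes were below 0. The exceptions were Cox6b2 in LV (0.59 ± 0.57, SE) and RV (0.10 ± 0.46), and Ndufa10l1 in Spt (0.17). At an adjusted p under 0.05 (edgeR quasi-likelihood test, 4 animals against 3), 0 members were called in LV, against 0.837% of all genes tested, 0 in Spt (0.232%) and 0 in RV (0%). DESeq2 called 0 members in each region as well. At an unadjusted p under 0.05, 9 members were lower in LV (5.67% of all genes tested), 21 in Spt (6.5%) and 38 in RV (5.95%), and with DESeq2 9 (4.78%), 19 (4.23%) and 47 (5.71%). These counts depended on single libraries. In LV the count was 0 without AOB-F replicate 1, 1 without Sham-LF replicate 2, 2 without AOB-F replicate 4 and 15 without AOB-F replicate 3. In Spt it was 4 without AOB-F replicate 3, 5 without Sham-LF replicate 2 and 38 without Sham-LF replicate 3. In RV it was 2 without Sham-LF replicate 1, 7 without AOB-F replicate 1, 8 without AOB-F replicate 4, 10 without Sham-LF replicate 2, and 51 to 54 without AOB-F replicate 2, Sham-LF replicate 3 or AOB-F replicate 3. The share of all genes tested that was lower at that p ranged over these fits from 2.88% to 8.36% in LV, 2.99% to 8.24% in Spt and 2.51% to 10.3% in RV. The median kept its sign with any 1 of these libraries left out, from -0.33 to -0.15 in LV, -0.40 to -0.23 in Spt and -0.53 to -0.28 in RV. The regions come from the same 7 animals and are not independent.

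The member score of each library shows where this difference lay. In LV the scores were -0.06, 0.17 and -0.13 in Sham-LF and -0.38, -0.14, -0.19 and -0.35 in AOB-F. In Spt they were 0.09, 0.22 and -0.06 in Sham-LF and -0.22, -0.12, -0.33 and -0.08 in AOB-F. The groups did not overlap in LV or Spt, by a narrow margin. In RV they were 0.49, 0.33 and 0.09 in Sham-LF and -0.33, 0.12, 0.14 and -0.27 in AOB-F, and the groups overlapped. RV of Sham-LF, the control here, is also the group with the highest member score of all 21. AOB-F animals 1 and 4 were the lowest of their group in both ventricles. As a share of all reads, the members held 8.04%, 9.07% and 7.93% in LV of Sham-LF, and 6.43%, 7.81%, 7.54% and 6.85% in LV of AOB-F.

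By complex, every median lay below 0 in all 3 regions. In LV the medians were -0.26 (complex I), -0.29 (II), -0.22 (III), -0.27 (IV) and -0.25 (V), and all members of complexes I, II, III and V and 13 of the 14 of complex IV were below 0. In Spt they were -0.33, -0.20, -0.26, -0.35 and -0.35, in the same order, and in RV -0.42, -0.27, -0.34, -0.40 and -0.40. In LV, Spt and RV, 23, 20 and 10 members had every AOB-F library below every Sham-LF library, against 6.21%, 4.4% and 5.54% of all genes tested. LV and Spt shared 11 of these, and Atp5g2, Ndufa9 and Ndufb8 were among them in all 3 regions. The regions come from the same animals, and the share of all genes tested that separated in several regions was not computed.

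**Figure D3:**
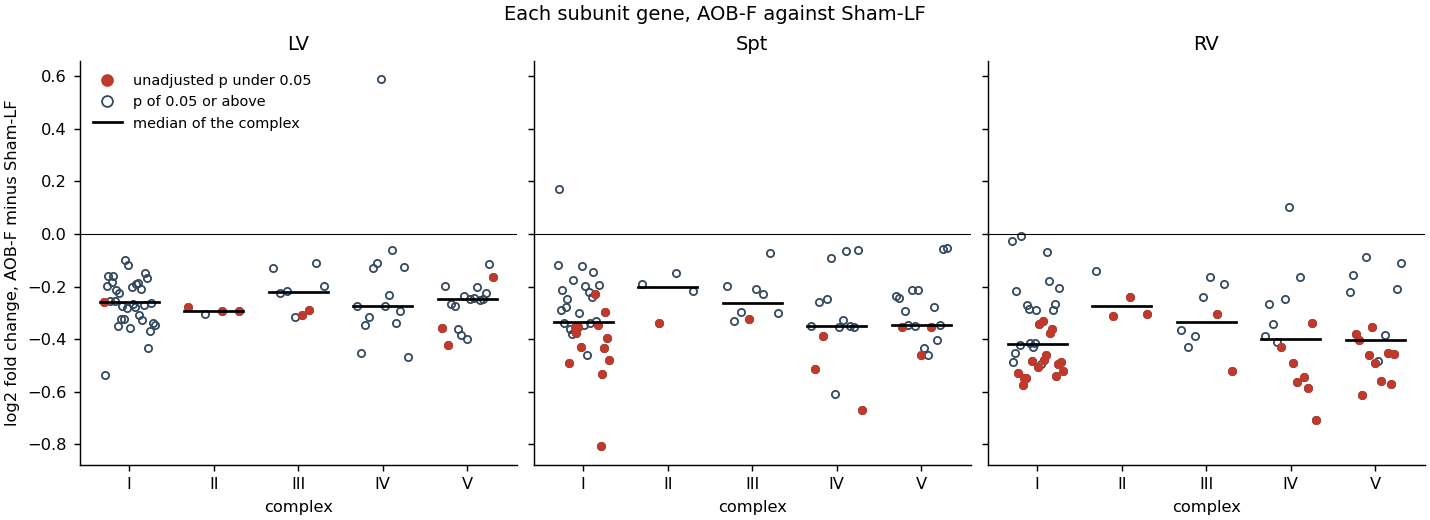
Log2 fold change of each member (AOB-F minus Sham-LF) by complex, for LV, Spt and RV, with the complex median as a line and members at an unadjusted p under 0.05 filled in red. Points lie below 0 except for 1 member in each region, and the complex medians run from -0.42 to -0.20.

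Among the complex I subunits, Ndufa9, an accessory subunit near the ubiquinone site, separated the groups in each region. In LV its levels were 847, 955 and 810 CPM in Sham-LF and 534, 795, 801 and 637 in AOB-F. In Spt they were 910, 1076 and 928 against 721, 848, 676 and 833, and in RV 1116, 1033.8 and 1021.6 against 671, 965, 1009 and 771. Every AOB-F library was lower than every Sham-LF library, by a narrow margin in 1 or more of the AOB-F libraries of LV and RV. The log2 fold changes of Ndufa9 were -0.32 ± 0.17 (SE) in LV, -0.35 ± 0.11 in Spt (adjusted p = 0.15) and -0.29 ± 0.15 in RV. Ndufb8, an accessory subunit of the membrane arm that was chosen after its values were seen, had 1026.2, 1220 and 987 CPM in LV of Sham-LF and 861, 944, 916 and 815 in AOB-F. Its fold changes were -0.28 ± 0.19 (LV), -0.22 (Spt) and -0.33 ± 0.15 (RV). The subunits of the NADH-oxidising module were not tested against each other. Ndufv1, which binds NADH, had -0.26 ± 0.17 in LV and -0.30 ± 0.12 in Spt. Ndufs1, an iron-sulfur subunit with a longer transcript, had -0.31 ± 0.16 in LV, -0.14 ± 0.20 in Spt and -0.07 ± 0.21 in RV. Its Spt levels were 476, 818 and 1118 CPM in Sham-LF and 631, 818, 758 and 735 in AOB-F, so the sham libraries spread beyond the AOB-F range on both sides. In RV, Ndufv2 (1888, 1676 and 1388 CPM against 886, 1350, 1467 and 938) had -0.49 ± 0.17 (adjusted p = 0.34), and Ndufc2, of the membrane arm, -0.46 ± 0.17 (adjusted p = 0.35), and for both the groups overlapped.

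In complex II, Sdhb stood at 1115, 1287 and 1006 CPM in LV of Sham-LF and at 795, 1039.8, 1004 and 819 in AOB-F, with -0.30 ± 0.16 (log2 ± SE). In Spt it had 1209, 1437 and 1160.5 CPM against 983, 1096, 902.95 and 1078, with no overlap, and -0.34 ± 0.10, the lowest p of any member in that region (adjusted p = 0.13). Sdha, the subunit that oxidises succinate, had -0.28 ± 0.13 in LV, -0.19 ± 0.16 in Spt and -0.14 ± 0.15 for RV. In complex III, Uqcrc2, a core protein, had 1491, 1421 and 1491 CPM in LV of Sham-LF and 1037.95, 1153.2, 1424 and 1098 in AOB-F, with -0.31 ± 0.12 (adjusted p = 0.24), and 1 AOB-F library reached the sham range. The other core protein, Uqcrc1, had -0.32 ± 0.17 in LV and -0.32 ± 0.12 in Spt. Uqcrfs1, the Rieske iron-sulfur protein, had 1620, 1851 and 1559 CPM in LV of Sham-LF and 1156.3, 1501, 1540 and 1253 in AOB-F. No AOB-F library of Uqcrfs1 reached the sham range, and its fold changes were -0.29 ± 0.14 in LV and -0.31 ± 0.12 in RV.

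In complex IV, Cox8b had the lowest estimates of the isoforms listed. In LV it had 2177, 2981 and 2497 CPM in Sham-LF and 1411, 2162, 2060 and 1715 in AOB-F, a log2 fold change of -0.47 ± 0.30. In Spt it had 3607, 3508 and 2259 CPM against 1950, 2006, 1587 and 2403, with -0.67 ± 0.22 (adjusted p = 0.16). In RV it had 4923, 4276 and 3195 CPM against 1588, 3141, 3466 and 1753, with -0.71 ± 0.28. The groups of Cox8b did not overlap in LV and overlapped in Spt and RV. The ubiquitous Cox8a had -0.13 ± 0.18 in LV and -0.06 in Spt. The muscle form Cox6a2 had 2687, 3300 and 2609 CPM in LV of Sham-LF and 2727, 2729, 2512 and 2592 in AOB-F, and its estimate was -0.11 ± 0.23. Its Spt and RV estimates were -0.09 and -0.25, and Cox6a1 had -0.13 for LV, -0.25 for Spt and -0.43 for RV. Cox4i1 had -0.27 ± 0.22 and Cox5a, a matrix-facing subunit, -0.35 ± 0.19 in LV. Cox4i2 had -0.51 ± 0.21 in Spt. Cox7c, a small membrane subunit, had the lowest p of all members in RV at -0.59 ± 0.20 (adjusted p = 0.34), from 3671, 3004 and 2228 CPM in Sham-LF and 1639, 2404, 2278 and 1460 in AOB-F, which overlapped. Cox7a2 had -0.56 ± 0.26 in RV. Cox7a2l, Ndufa4 and Ndufa4l2 had -0.06, -0.18 and -0.16 in LV.

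In complex V, Atp5c1, the gamma subunit of the rotor, had the lowest p of all members in LV at -0.42 ± 0.16 (log2 ± SE; adjusted p = 0.23). Its levels were 1450, 1726 and 1368 CPM in Sham-LF and 911, 1281, 1322 and 987 in AOB-F, with no overlap. Atp5a1, the alpha subunit, had 4756, 4969 and 4467 CPM against 2864, 4068, 4632 and 3134, with -0.36 ± 0.14 (adjusted p = 0.24) and an overlap of 1 library. Atp5b had 8284, 9492 and 7721 CPM against 6261, 7905, 8042 and 7223, and its estimates, -0.20 ± 0.13 for LV, -0.24 ± 0.13 for Spt and -0.15 ± 0.12 for RV, were among the smaller ones of the core subunits. The c ring genes had -0.39 ± 0.22 (Atp5g1), -0.24 ± 0.17 (Atp5g2) and -0.40 ± 0.23 (Atp5g3) in LV, and -0.46 ± 0.20, -0.35 ± 0.15 and -0.49 ± 0.24 in RV. Atp5g2 had 629, 707 and 609 CPM in LV of Sham-LF and 533, 566, 595 and 493 in AOB-F. It also separated the groups in Spt (567, 619 and 590 against 488, 531, 486 and 561) and in RV (855, 771 and 679 against 557, 634, 638 and 544).

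Other genes of like length gave a smaller median than the members in this comparison, but most of them were longer than most members. In RV, 144 other tested genes lay under 500 bases and 5077 from 1200 to 2500, against 18 and 19 members. The median of other genes of like length was -0.00 in LV, -0.04 in Spt and -0.08 in RV, against -0.26, -0.32 and -0.39 for members. Under 500 bases, members stood at -0.25 and others at 0.02 in LV, -0.35 and -0.09 in Spt, and -0.47 and -0.29 in RV. From 1200 to 2500 bases, members stood at -0.28 and others at 0.00 in LV, -0.22 and -0.02 in Spt, and -0.21 and -0.02 in RV. Between these lengths, RV members stood at -0.43 and others at -0.24 from 500 to 700 bases, and at -0.40 and -0.15 from 700 to 1200. In LV the member value was thus of like size in short and longer members, and in RV it was larger in short ones. Cytosolic ribosomal protein genes had a median of 0.05 in LV, -0.05 in Spt and -0.28 in RV, and mitochondrial ribosomal protein genes -0.21, -0.22 and -0.28. A scaling over short genes left the member median at -0.24 in LV, -0.28 in Spt and -0.29 in RV, while it moved the median of all genes by 0.03, 0.04 and 0.13 respectively. A fit within the library series of the failure groups gave member medians of -0.26, -0.31 and -0.41, again with 0 members called, and with 33, 56 and 60 members lower at an unadjusted p under 0.05, against 7.57%, 8.11% and 10.7% of all genes tested in those fits.

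**Figure D4:**
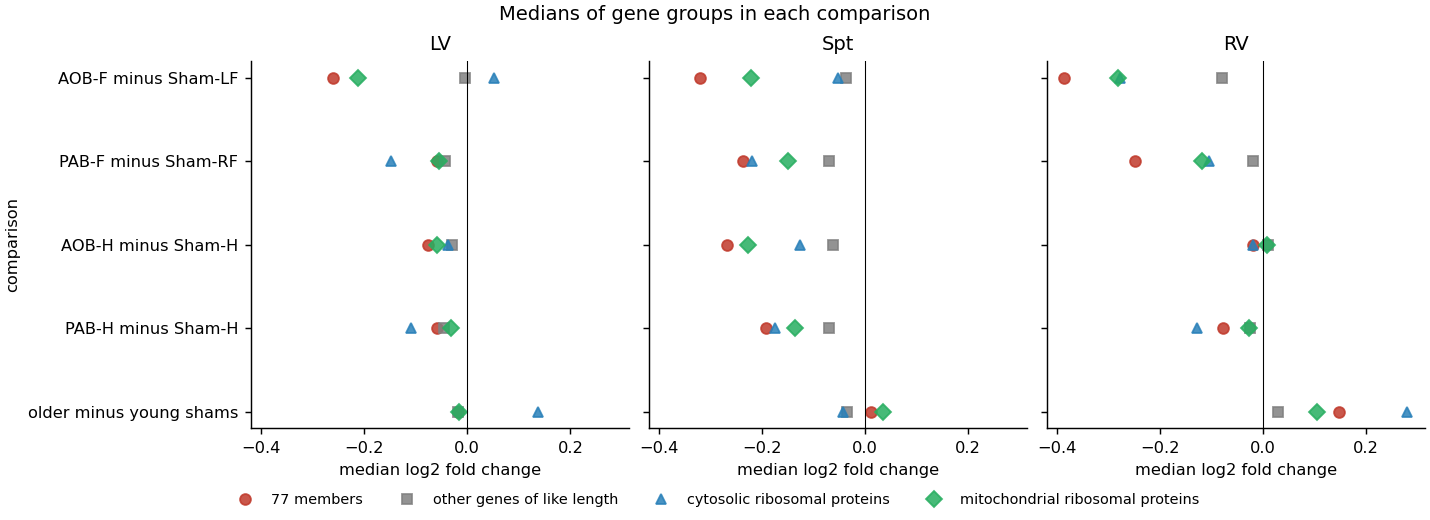
Median log2 fold change of the 77 members (red), other genes of like length (grey), cytosolic ribosomal (blue) and mitochondrial ribosomal protein genes (green) in 5 comparisons and 3 regions. In AOB-F the members lie at -0.26, -0.32 and -0.39 and the other genes of like length at -0.08 or closer to 0. These other genes span the members' length range but were not matched to them in length.

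Marker genes of cell types were read in the same libraries. In LV, the cardiomyocyte markers summed to 54210 to 69430 CPM in AOB-F and 69940 to 88460 in Sham-LF, with no overlap, and 6 of the 7 were below 0, with 2 at an unadjusted p under 0.05 (5.67% of all genes tested were lower at that p). Fibroblast markers summed to 2845 to 3720 CPM in AOB-F and 2438 to 2653 in Sham-LF, with 4 of 5 above 0. Macrophage markers summed to 283 to 450 CPM and 240 to 296, with 5 of 5 above 0. Endothelial markers (954 to 975 CPM in Sham-LF, within the AOB-F range), smooth muscle and pericyte markers (305 to 452 and 342 to 409), adipocyte markers (16.7 to 37.2 and 19.8 to 28.1) and erythroid markers (1443 to 2366 and 1654 to 2159) overlapped. Atrial markers summed to 19.5 to 531 CPM in AOB-F and 10.3 to 36.4 in Sham-LF. In RV they summed to 28.8 to 804 CPM in AOB-F (highest in replicate 2) and 86.2 to 934 in Sham-LF (highest in replicate 3). No gene of these lists was at 0 in every library, and none passed the adjusted threshold. In Spt the cardiomyocyte sums were 64520 to 77110 CPM in AOB-F and 81700 to 98290 in Sham-LF, also without overlap, and in RV 63530 to 88370 and 86650 to 101800. Myh6, the alpha myosin heavy chain, had a log2 fold change of -1.02 ± 0.30 in LV (13460 CPM to 6593, adjusted p = 0.087). Myh6 is itself among the 7 summed cardiomyocyte markers. The part of these marker differences in the members' values was not tested. In bulk tissue, fewer cells of a type and less RNA of the marker genes per cell cannot be told apart.

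Other genes of mitochondrial energy metabolism were read from lists. None of their genes was called in AOB-F. Of all genes tested in LV, 5.67% were lower at an unadjusted p under 0.05 (edgeR). In LV, 12 of 12 tested citric acid cycle genes were below 0, 8 of them at that p, with a median of -0.30. All 6 electron carriers were below 0 (3 at that p, median -0.33), as were all 7 carriers and channels of the mitochondrial membranes (4, median -0.28). Of 35 assembly factors, 33 were below 0 (9, median -0.18), and of 66 mitochondrial ribosomal protein genes 65 (13, median -0.21). Of 15 regulators of mitochondrial genes, 11 were below 0 (1, median -0.12). The cytosolic ribosomal list had 24 of 89 below 0. In RV, 10 of 15 regulators were above 0, with a median of 0.12, while 30 of 35 assembly factors and 64 of 66 mitochondrial ribosomal protein genes were below 0. Slc25a4, the ADP/ATP carrier of heart muscle, had 8889 CPM in Sham-LF and 5999 in AOB-F in LV, a log2 fold change of -0.56 ± 0.19, with -0.56 ± 0.16 in Spt and -0.51 ± 0.19 in RV. Ckmt2, the mitochondrial creatine kinase, had -0.51 ± 0.22 in LV, -0.58 ± 0.19 in Spt and -0.51 ± 0.21 in RV. Cycs, cytochrome c, had -0.34 ± 0.13 in LV, and Etfdh, which feeds electrons of fatty acid oxidation into ubiquinone, -0.34 ± 0.12. The coactivator gene Ppargc1a had -0.47 ± 0.31 in LV, -0.11 in Spt and -0.18 in RV. Tfam, the mitochondrial transcription factor, had -0.22 ± 0.10 and Esrra -0.24 ± 0.15 in LV. These genes were chosen for display after their values were seen.

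The promoters of the members were searched for short motifs known from mitochondrial genes, on both strands, in the RefSeq sequences of assembly GRCr8 from 250 bases before to 50 after each gene's start. A sequence was found for 65 of the 77 members. The motif GCATGCGC (NRF1) was in 8 of 65 (12.3%) against 2.66% of 27457 promoters, and CCGGAAGT (GABPA) in 7 (10.8%) against 4.01%. AAGATGGCG (YY1) was in 9 (13.8%) against 1.93%, and CAAGGTCA (ERR, the oestrogen-related receptors) in 4 (6.15%) against 1.48%. At least 1 of the 4 was in 25 members (38.5%) and in 9.5% of all promoters. The 4 motifs are not variants of each other, and matches of a motif to itself on both strands may overlap. No test was made, and a match is a description of the sequence. Ndufa9 and Sdhb are shown as members with the lowest p in Spt, Uqcrc1 as a core subunit with 2 kinds of motif, and Cox8a and Cox8b as an isoform pair that differs in motifs. Capitals mark the motif matches and the sequences run in the direction of the gene. They lie at chr4:161374121-161374420 on the minus strand (YY1), chr5:158547684-158547983 on the plus strand (NRF1), chr8:118467973-118468272 on the plus strand (NRF1 and YY1), chr1:213833574-213833873 on the minus strand (GABPA and ERR) and chr1:205408224-205408523 on the minus strand (no match to the 4 motifs).
Ndufa9: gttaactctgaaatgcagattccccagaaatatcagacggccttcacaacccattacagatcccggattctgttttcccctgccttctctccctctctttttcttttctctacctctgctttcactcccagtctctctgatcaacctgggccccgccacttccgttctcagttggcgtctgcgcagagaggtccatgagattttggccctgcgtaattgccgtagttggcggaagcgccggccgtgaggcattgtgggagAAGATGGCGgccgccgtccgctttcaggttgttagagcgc
Sdhb: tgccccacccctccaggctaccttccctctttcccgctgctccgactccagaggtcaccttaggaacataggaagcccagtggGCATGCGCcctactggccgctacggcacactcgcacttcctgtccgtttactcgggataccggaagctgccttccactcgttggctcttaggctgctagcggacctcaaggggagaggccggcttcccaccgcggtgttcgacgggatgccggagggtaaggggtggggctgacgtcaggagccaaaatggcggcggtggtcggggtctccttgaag
Uqcrc1: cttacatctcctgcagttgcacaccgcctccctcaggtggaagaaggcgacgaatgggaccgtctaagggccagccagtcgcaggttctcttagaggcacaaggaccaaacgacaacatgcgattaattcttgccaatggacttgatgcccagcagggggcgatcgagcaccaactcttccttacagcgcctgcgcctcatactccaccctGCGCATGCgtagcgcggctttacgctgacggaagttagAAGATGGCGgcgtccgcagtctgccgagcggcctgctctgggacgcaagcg
Cox8a: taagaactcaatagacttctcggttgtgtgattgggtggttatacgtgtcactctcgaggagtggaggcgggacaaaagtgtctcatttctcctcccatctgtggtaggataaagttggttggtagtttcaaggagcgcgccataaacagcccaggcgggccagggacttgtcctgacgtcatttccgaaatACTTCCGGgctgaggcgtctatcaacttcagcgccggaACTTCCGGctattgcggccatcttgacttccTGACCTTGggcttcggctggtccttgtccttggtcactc
Cox8b: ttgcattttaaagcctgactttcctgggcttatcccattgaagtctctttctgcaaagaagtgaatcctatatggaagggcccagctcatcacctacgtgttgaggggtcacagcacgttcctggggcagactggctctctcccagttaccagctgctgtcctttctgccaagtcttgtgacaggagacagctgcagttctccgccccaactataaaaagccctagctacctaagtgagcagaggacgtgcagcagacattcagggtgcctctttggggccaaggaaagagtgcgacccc

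In the failing right heart (PAB-F against Sham-RF, 3 animals against 2), member medians were also below 0, and in Spt and LV they lay closer to those of other short genes of the same length. The median over members was -0.25 in RV, with 67 of 77 members below 0, -0.24 in Spt, with 67 below 0, and -0.06 in LV, with 62 below 0. None passed the adjusted threshold in RV, Spt or LV, where 0% of all genes tested did in each, and DESeq2 called 0 members as well. At an unadjusted p under 0.05, 1 member was lower in Spt, against 2.14% of all genes tested, and 0 in LV and RV. A fit of the Spt libraries of these 5 animals alone called 29 members and 7.1% of all genes tested. In RV, 48 members had every PAB-F library below both sham libraries, against 18.6% of all genes tested, in Spt 63 (21.6%) and in LV 2 (10.5%). By complex, RV medians were -0.25 (I), -0.09 (II), -0.18 (III), -0.31 (IV) and -0.29 (V), so complex II was the closest to 0. The Spt medians were -0.26, -0.09, -0.22, -0.26 and -0.22.

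The fold changes went with gene length. In Spt, members under 500 bases stood at -0.30 and other genes at -0.26, and from 1200 to 2500 bases members at -0.03 and others at -0.02. Between these lengths the Spt members lay further below the others, at -0.28 against -0.21 from 500 to 700 bases and -0.27 against -0.13 from 700 to 1200. In RV the values were -0.37 and -0.17 under 500 bases, and -0.12 and 0.01 from 1200 to 2500. In LV, members under 500 bases stood at -0.11 and others at -0.13. Over the 77 members, log2 length and fold change of PAB-F correlated at r = 0.643 (Spearman 0.558) in Spt and 0.496 (0.462) in RV, and those of AOB-F at 0.416 (0.345) in Spt, 0.547 (0.501) in RV and -0.198 (-0.27) in LV. These points share libraries, and no p was computed.

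The lowest p in RV belonged to Atp5f1, a row of few reads (-0.58 ± 0.31, adjusted p = 0.63), Cox8b (-0.60 ± 0.34) and Ndufv3 (-0.52 ± 0.30), a small complex I subunit. Cox8b had 3632 and 3172 CPM in RV of Sham-RF and 2806, 2005 and 1943 in PAB-F, which did not overlap. In Spt it had 3328 and 3762 CPM against 2532, 2291 and 2679, with -0.50 ± 0.26, and Ndufv3 had -0.45 ± 0.20 (adjusted p = 0.82) and Cox5b -0.33 ± 0.18. Core subunits with longer transcripts lay near or above 0, as Ndufs1 did at 0.18 ± 0.25 in RV and 0.27 ± 0.24 in Spt, and Sdha at 0.02 in RV and 0.15 in Spt. Sdhb had -0.19 ± 0.17 and Atp5b -0.18 ± 0.14 in RV. In LV, Ndufa10l1 (-0.36 ± 0.40), Ndufs1 (0.14 ± 0.20) and Atp5e (-0.22 ± 0.32) had the lowest p, all within their error. The member scores were 0.08, -0.10 and -0.18 in RV of PAB-F and 0.14 and 0.18 in Sham-RF. In Spt they were -0.01, -0.02 and -0.00 against 0.14 and 0.23, and in LV -0.02, -0.10 and 0.09 against 0.08 and 0.02. The cardiomyocyte marker sums were 69170 to 82310 CPM in PAB-F and 84580 to 86810 in Sham-RF in RV, and 79180 to 84270 against 87170 to 89450 in Spt, both without overlap. In LV they overlapped, at 73000 to 81140 and 74290 to 76930. The atrial markers Myl7, Myl4 and Sln summed to 41.9, 16.1 and 1768 CPM in RV of PAB-F and to 13.6 and 49.4 in Sham-RF. The sum of 1768 was in PAB-F replicate 3, the library with a member score of -0.18. The part of both kinds of markers in the members' values was not tested. Of 12 citric acid cycle genes, 8 were above 0 in RV (median 0.14) and 8 in Spt (0.12).

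At the compensated stage, no member passed the adjusted threshold after either banding in any region. Both bandings were compared with the same Sham-H animals. For AOB-H, 0% of all genes tested were called in LV, Spt and RV, and for PAB-H likewise 0% in all 3. DESeq2 called 1 member in Spt of AOB-H, Ndufv1 (0.0958% of all genes tested), and 0 elsewhere. The median over members was -0.08 in LV, -0.27 in Spt and -0.02 in RV for AOB-H, with 67, 73 and 52 of 77 below 0, and -0.06, -0.19 and -0.08 for PAB-H, with 56, 69 and 64 below 0. Other genes of like length had medians of -0.06 in Spt of AOB-H and -0.07 in Spt of PAB-H, and the shorter ones lay lower. Under 500 bases, Spt members stood at -0.32 and others at -0.16 for AOB-H, and at -0.24 and -0.21 for PAB-H. From 500 to 700 bases the values were -0.28 and -0.15 for AOB-H, and -0.23 and -0.16 for PAB-H. From 700 to 1200 bases they were -0.29 and -0.10, and -0.20 and -0.12.

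In Spt of AOB-H, 50 members were lower at an unadjusted p under 0.05, against 10.3% of all genes tested. They comprised 22 of complex I, 2 of complex II, 6 of complex III, 8 of complex IV and 12 of complex V. Ndufv1 ranged from 1065 to 1503 CPM in AOB-H and from 1358 to 1912 in Sham-H, with -0.29 ± 0.08 (adjusted p = 0.20). Uqcrc1 ranged from 1399 to 1880 CPM (median 1612) and from 1714 to 2649 (median 1860), with -0.28 ± 0.09 (adjusted p = 0.21). Ndufs7 ranged from 430.0 to 571.5 CPM (median 454.7) and from 490.3 to 1152.6 (median 577.4), with -0.42 ± 0.13 (adjusted p = 0.22). The ranges overlapped for all 3 genes. This count rested on Sham-H replicate 5, the library that stood apart. Its member score was 0.80, against -0.22 to 0.13 in the other 6 Sham-H libraries of Spt, its members held 11.7% of reads and its cardiomyocyte marker sum, 112500 CPM, was the highest of all libraries. Without it the median of AOB-H was -0.11 and 9 members stood lower at that p, against 4.2% of all genes tested in that fit. Within series 2, which holds this library, the median was -0.57, and within series 3 it was -0.13. The cardiomyocyte sums were 63720 to 84750 CPM in AOB-H (median 68490) and 77310 to 112500 in Sham-H (median 82980), and their part was not tested. For PAB-H in Spt, 5 members were lower at an unadjusted p under 0.05, against 3.36% of all genes tested, with Ndufb2 (-0.36 ± 0.16, adjusted p = 0.79), Ndufb7 (-0.37 ± 0.17) and Atp5j2 (-0.30 ± 0.14) lowest in p. Without Sham-H replicate 5 none was, and the median was -0.02.

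In the ventricles the compensated values were small. In LV of PAB-H, 1 member was higher at an unadjusted p under 0.05, Uqcrc2 at 0.20 ± 0.09 (adjusted p = 0.96), against 1.82% of all genes tested, beside Ndufs1 at 0.23 and Sdha at 0.16. In RV of PAB-H the lowest p belonged to Cox6b2 (-0.43 ± 0.31), Cox8a (-0.12) and Uqcrc2 (0.10). In LV of AOB-H they belonged to Atp5f1, a row of few reads (0.24 ± 0.16), Cox8a (-0.18 ± 0.13) and Ndufs7 (-0.21 ± 0.16). In RV of AOB-H they belonged to Ndufa10l1 (0.32 ± 0.28), Ndufa10 (0.08) and Ndufb4 (-0.12). The member median within library series 1, 2 and 3 was 0.13, -0.22 and -0.15 in LV of AOB-H, and -0.13, -0.20 and 0.20 in RV of PAB-H, so its sign was not the same in all series. Without the 3 animals whose LV and RV labels were opposite to the check, the LV and RV medians were -0.19 and -0.12 for AOB-H and -0.14 and -0.17 for PAB-H. The animals left out were in series 1 for AOB-H and PAB-H and in series 3 for Sham-H. The groups compared then no longer held the series in equal parts, and the part of this in the medians was not tested.

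Regions of the sham hearts (12 animals) were compared in an edgeR fit of all 99 libraries, which did not pair the regions of an animal. Most members had a higher estimate in RV than in LV. The median was 0.19, with 72 of 77 members above 0, against 0.02 for other genes of like length. At an adjusted p under 0.05, 2 members were called, against 12.6% of all genes tested. Atp5b was higher in RV, at 10240 ± 919 CPM (SD; 8355 to 11470) against 9111 ± 856 in LV (7721 to 10310), a log2 difference of 0.20 ± 0.07 (SE; adjusted p = 0.0495). Ndufa4l2 was lower in RV, at 15.2 ± 2.4 CPM against 19.9 ± 4.0, with -0.46 ± 0.13 (adjusted p = 0.0149). At an unadjusted p under 0.05, 20 members were higher and 2 lower, against 14.6% of all genes tested in each direction. The call of Atp5b was lost with TMM scaling over short genes that are no members (0.17), with no filter on low counts, and without any of 10 of the 12 animals, and that of Ndufa4l2 without Sham-LF replicate 2, Sham-RF replicate 1 or Sham-RF replicate 2. With the library series as a covariate 18 members were called, against 24.2% of all genes tested in that fit. Without Sham-H replicate 6, whose LV and RV labels were opposite to the check, 6 were, against 17.6%. The complex medians of RV minus LV were 0.19 (I), 0.09 (II), 0.13 (III), 0.20 (IV) and 0.21 (V). Members under 500 bases stood at 0.28 and other genes of that length at 0.18.

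The septum lay between the ventricles or close to them. Spt minus LV had a member median of 0.11, with 68 above 0, and 0 members were called against 2.55% of all genes tested. At an unadjusted p under 0.05, 2 were higher, against 6.15%, with DESeq2 calling 0. Atp5b was at 10050 ± 795 CPM in Spt, a difference of 0.17 ± 0.07 (adjusted p = 0.23), and Atp5sl had -0.08. Spt minus RV had a median of -0.06, with 67 below 0, and 0 members were called against 6.73%, also by DESeq2. At an unadjusted p under 0.05, 1 was higher and 1 lower, against 9.8% and 9.63%. These were Ndufa4l2 at 0.32 ± 0.13 (adjusted p = 0.14) and Cox6b2 at -0.83 ± 0.30 (adjusted p = 0.076), which had 0.81 CPM in Spt and 1.42 in RV, a level of few reads, and Cox4i2 followed at 0.29 ± 0.17. With the animal as a block 1 member was called in Spt minus RV, Ndufa4l2 at 0.33, against 8.8% of all genes tested in that fit. Without the animal of Sham-H replicate 5 the median was 0.05 for Spt minus LV, with 0 members called (2.63%), and -0.14 for Spt minus RV, with 1 called (Cox6b2, 7.97%). The Spt and ventricle libraries differ in their library series, and within series 3 the median of Spt minus RV was 0.15.

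In older against young shams (5 animals against 7), the members' median was -0.02 for LV, 0.01 for Spt and 0.15 for RV, where 65 of 77 were above 0. In RV, other genes of the same length stood near the members. Under 500 bases members were at 0.26 and others at 0.25, and from 500 to 700 bases at 0.15 and 0.16. From 700 to 1200 bases they were at 0.14 and 0.07. Over the members, log2 length and this RV difference correlated at r = -0.665 (Spearman -0.637). No member was called in LV (0.0171% of all genes tested), Spt (0.103%) or RV (0.0852%), and DESeq2 called 0 in each. At an unadjusted p under 0.05, 1 member was lower in LV (3.95% of all genes tested), Sdha at -0.22 ± 0.10 (adjusted p = 0.68), 1 was higher in Spt (7.75%), Cox6a2 at 0.26 ± 0.12 (adjusted p = 0.28), and 0 differed in RV. The Spt value rested on Sham-H replicate 5. Without it the median was 0.19 and 6 members were called, all higher in older shams, against 4.93% of all genes tested. With each of the 12 animals left out in turn, the median ranged from -0.06 to 0.19 in Spt and from -0.07 to 0.04 in LV, so its sign was not fixed, and from 0.08 to 0.22 in RV. The other members of lowest p were Atp5b (-0.20) and Ndufs1 (-0.24) in LV, Ndufv3 (0.27) and Ndufs6 (0.40) in Spt, and Uqcr10 (0.32 ± 0.16, adjusted p = 0.48), Ndufs1 (-0.32 ± 0.17) and Cox7b (0.30) in RV. The older shams of the ventricles were all in series 2, and within that series the medians were 0.10 in LV and 0.25 in RV.

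The ratio of 2 isoforms in a library does not depend on the library's total, but it can move with the library series. In LV, series 2 minus 1 was -0.90 for Cox8b and -0.49 for Cox8a, but -0.65 for Cox6a2 and -0.68 for Cox6a1. The 6 ratios were compared in 18 comparisons, 108 tests in all (exact permutation tests over samples, two-sided, or sign flips over the 12 sham animals between regions, Benjamini-Hochberg adjusted). None had an adjusted p under 0.05, and 4 animals against 3 could not reach an exact p below 0.05714, nor 3 against 2 below 0.2. The muscle to ubiquitous ratio of subunit 6a, log2 of Cox6a2 over Cox6a1, was higher in every older sham than in every young sham, in all 3 regions. In LV the young shams had 3.16, 3.15, 3.27, 3.17, 3.08, 3.17 and 3.20, Sham-RF had 3.36 and 3.39, and Sham-LF had 3.54, 3.50 and 3.57. The difference was 0.30 in LV (3.47 ± 0.09 against 3.17 ± 0.06, SD), 0.44 in Spt (3.60 ± 0.06 against 3.16 ± 0.18) and 0.20 in RV (3.35 ± 0.04 against 3.15 ± 0.08). Each had an exact permutation p of 0.002525, the smallest these groups allow, and an adjusted p of 0.0844. Within 1 library series the differences were 0.30, 0.36 and 0.26. The Spt value within series 3 leaves out Sham-H replicates 1 and 5. Replicate 5 had a ratio of 2.78 in Spt, with 3.15 to 3.33 in the other young shams. In LV the AOB-F animals had 3.46, 3.63, 3.57 and 3.56, which overlapped Sham-LF. In Spt they had 3.72, 3.76, 3.76 and 3.69 against 3.59, 3.64 and 3.50, a difference of 0.16 (exact permutation p = 0.05714, adjusted p = 0.29). In RV they had 3.60, 3.41, 3.42 and 3.70 against 3.29, 3.33 and 3.41.

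**Figure D5:**
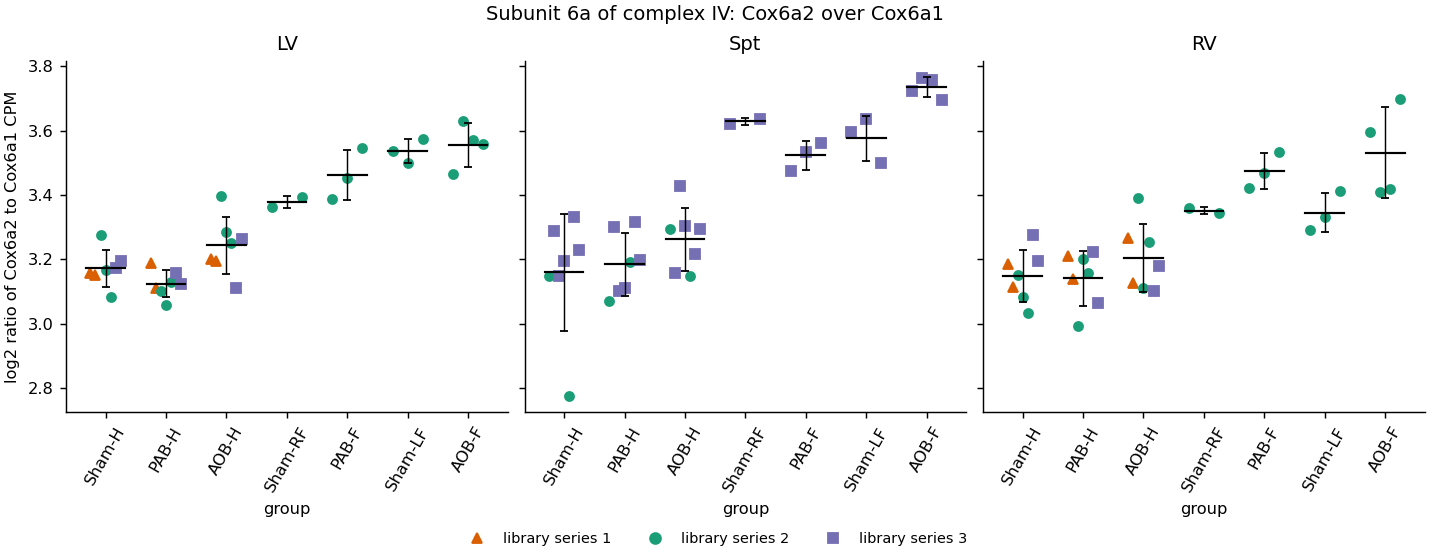
Log2 ratio of Cox6a2 (muscle form) over Cox6a1 (ubiquitous form) in every library, by group and region, coloured by library series. The young shams of LV lie between 3.08 and 3.27 and the older shams between 3.36 and 3.57.

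Among the other pairs, the lowest p values were between regions. Log2 of Ndufa4l2 over Ndufa4 was lower in RV than in LV by a mean of -0.59, in 11 of 12 sham animals (exact permutation p = 0.003418, adjusted p = 0.0844). Log2 of Cox4i2 over Cox4i1 had -0.45, also in 11 of 12 (exact permutation p = 0.003906, adjusted p = 0.0844). In both the exception was Sham-H replicate 6, the animal whose labels were opposite to the check, with -6.77 in the library labelled RV and -7.25 in that labelled LV for Cox4i2 over Cox4i1. Without that animal the differences were -0.69 and -0.53, each with an exact permutation p of 0.0009766, the smallest that 11 animals allow, unadjusted. Cox8b over Cox8a was higher in RV by 0.20, in 10 of 12 animals (exact permutation p = 0.006348, adjusted p = 0.114). This ratio moved with the library series, and within series 2 its RV minus LV difference was 0.26. In AOB-F, Cox8b over Cox8a was 3.11, 4.09, 4.01 and 3.70 in LV against 3.95, 4.10 and 4.18 in Sham-LF. In Spt it was 3.89, 3.73, 3.36 and 4.23 against 4.58, 4.56 and 4.03, a difference of -0.59 (exact permutation p = 0.114), and in RV 3.58, 4.34, 4.59 and 3.76 against 4.60, 4.54 and 4.40. The groups overlapped in LV, Spt and RV.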

How the data were processed

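RNA of LV, Spt and RV of 33 rats was sequenced by the authors as directional poly(A) libraries, read single-end. Per the paper's methods and the submitters' processing notes, reads were trimmed with Trim Galore, aligned to Rnor6.0 (STAR) and assigned to genes by featureCounts, where reads over several genes were not counted, and DESeq2 was used. The strand setting is not given in the sources used here. The deposited table holds raw read counts, normalized counts (a signal scaled by the authors per library) and FPKM for each library. The raw counts were tested, and FPKM and normalized counts served for levels and gene lengths.

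Groups came from the sample labels. For RV samples, title and source were used over a tissue label that says left ventricle, and for the RV library of Sham-LF replicate 1 title and age over a description that names the other older shams. Spt libraries of AOB-F replicates 1 and 2 were not matched to animals, since a sample sheet swaps them. Treatment text and sample labels differ in ages. No pair of libraries held identical counts (0 pairs).

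Each region was fitted with edgeR 4.0.16 in R 4.3.3 (TMM, filterByExpr, quasi-likelihood test, 7 conditions, no covariate), regions with all 99 libraries in 21 groups, and p-values were Benjamini-Hochberg adjusted over all genes tested with a threshold of 0.05. Differences are log2 fold changes with their SE. DESeq2 1.42.0 was an alternative, as were no filter, TMM over short genes, library series as a covariate or fitted within, only the groups compared, the replicate or animal as a block, and each replicate left out. Isoform ratios used log2(CPM + 0.5) and exact permutation tests (scipy 1.17.1). The scripts were tested on simulated data. Counting error and the number of animals limit precision at 12.06 to 24.20 M reads per library.

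Genes are named by rule: members called, or else the 3 with the lowest p in each comparison, the isoform pairs, the core subunits, and the highest and lowest member of each complex by FPKM. Others are said to have been chosen after their values were seen. The members, lists and tests were chosen with earlier results of these data known. Promoter sequences are those of RefSeq, and 12 members had none in the table used. The result of 1 member that the rule names is not reported here.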

Additional observations from a re-analysis of the deposited data

Results flagged for a closer look

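In 144 combinations of a group of 4 or 7 libraries and a measure, 13 held a library far from the others of its group by Dixon's criterion (0.568 for 7 libraries, 0.829 for 4), where chance gives about 1 in 20. Of these, 8 belong to the Spt library of Sham-H replicate 5. Its score was 0.80 over all members, 0.76 for complex I, 0.42 for complex II, 0.92 for complex III, 0.90 for complex IV and 0.83 for complex V, each the highest of its group. In the same library log2 of Cox6a2 over Cox6a1 was 2.78, with 3.15 to 3.33 in the others, and that of Ndufa4l2 over Ndufa4 was -7.38, with -6.75 to -6.39 in the others.

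Sham-H replicate 6 stood apart in the library labelled RV, with -6.77 for Cox4i2 over Cox4i1 (others -7.50 to -7.25) and -6.38 for Ndufa4l2 over Ndufa4 (others -7.32 to -6.92). This is an animal whose LV and RV labels were opposite to the label check. The RV library of Sham-H replicate 1 had 4.58 for Cox8b over Cox8a (others 4.00 to 4.19). The Spt library of AOB-H replicate 3 had -7.41 for Cox4i2 over Cox4i1 (others -7.07 to -6.86), and the RV library of AOB-H replicate 3 had -0.82 for Atp5g1 over Atp5g3 (others -0.62 to -0.52).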

How the results depend on the processing

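With 2 to 7 animals per group, small differences of single members could not be called, and 4 members with few reads had the least precision. Of the alternatives to counts of members called, 351 stayed within 1.5 times and 31 did not. Of medians over members, 368 moved by less than the spread between replicates and 14 by more. The cause of these changes was not tested.

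The number of members called in AOB-F against Sham-LF was 3 in LV (Atp5c1, Cox5a and Sdhc) with library series as a covariate, against 3.13% of all genes tested. DESeq2 called 1 in Spt of AOB-H. Within series 3, 1 was called in Spt of older against young shams (Cox6a2; 0.638% of all genes). In Spt of PAB-F, 29 were called when only the groups compared were fitted. For RV minus LV in shams, 1 was called with no filter (8.55% of all genes), 18 with the series as a covariate (24.2%), 5 with TMM over short genes (10.7%), 4 within series 2 (14.6%), and 4 with the animal as a replicate block and without Sham-H replicate 6 (21.1%). For Spt minus LV 2 were called with the series as a covariate (5.1%). For Spt minus RV 1 was called with the animal as a replicate block, and 2 with that block and without Sham-H replicate 6.

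The medians over members that moved were as follows. In PAB-F, TMM over short genes gave -0.0012 in LV and -0.16 in Spt. In LV of AOB-H, series 1 alone gave 0.13, in Spt of PAB-H series 2 alone -0.58, and in RV of PAB-H series 3 alone 0.20. The LV difference between series 2 and 1 was -0.39 with TMM over short genes. Fits within series 1 or 3 of LV and RV, within series 2 of Spt, and the animal block without Sham-H replicate 6 were chosen after seeing the data.

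The replicate numbers shared by banded and sham groups did not pair the animals, as the correlations of same-numbered libraries were not all above 0.1 in any comparison of 3 or more pairs (lowest -0.031 in LV and -0.393 in RV of AOB-F). With the number as a replicate block the median was -0.11 in LV and -0.19 in RV of PAB-F, and -0.23 in LV of older against young shams, where 1 member was called (Cox6a1; 8.21% of all genes). In Spt of AOB-F 1 was called (Cox4i2; 2.01%). The regions of a sham heart are paired by animal, and the animal block changed no call but that of Ndufa4l2 in Spt minus RV.

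Leaving out 1 replicate gave 0 to 2 members called in LV of AOB-F, 0 to 1 in Spt of AOB-H, 0 to 6 in RV minus LV, 0 to 1 in Spt minus RV, and 0 to 6 in Spt of older against young shams, where Sham-H replicate 5 gave the 6. Of all genes tested in these fits, 0% to 5.44%, 0% to 0.791%, 2.32% to 17.6%, 1.36% to 8.49% and 0% to 6.49% were called, in the same order. The PAB-F medians then ranged from -0.11 to -0.00011 in LV, -0.35 to -0.18 in Spt and -0.32 to -0.18 in RV. Single estimates that turned were Atp5f1 in LV of AOB-H (-0.020) and Ndufa10 in RV of AOB-H (-0.0037) within series 2, Cox8a in RV of PAB-H (0.10) and Atp5sl in Spt minus LV (0.14) within series 3, and log2 of Cox4i2 over Cox4i1 in Spt minus RV (-0.088) within series 3. Ndufs1 in LV of PAB-F ranged from -0.047 to 0.32 with 1 replicate left out.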
